A study of Homo sapiens with 9 samples.

Results

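The experiment set cells with YAP/TAZ siRNA against cells with a control siRNA in MCF10A cells that carry active HER2 and grow on plastic. It comprised 3 of the 9 libraries of the series: HER2 cells with siRNA 1 against YAP and TAZ (siYT1), HER2 cells with a second reagent, siRNA 3 (siYT3), and HER2 cells with control siRNA (siAS). Members were chosen by the labels of the count columns, and effects seen with both siRNAs were kept. MCF10A is an established, non-tumorigenic line of human breast epithelium. The HER2 cells had received a retrovirus, pBABEpuro, carrying HER2-CA with the change V659E, a constitutively active receptor, and the empty-vector cells had received pBABEpuro alone. The same 2 siRNA reagents were given to empty-vector cells on plastic (2 libraries), beside 2 control libraries, A and B. The other 2 libraries were control-siRNA cells of each line on a 0.5 kPa hydrogel. Cells were moved to their substrate 24 h after transfection and collected 24 h after that. Whether the transduced lines were clones or pools, and which sequences the siRNAs had, is not given in the sources used here.

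YAP (encoded by YAP1) and TAZ (encoded by WWTR1) are transcriptional coactivators without a DNA-binding domain. They act mainly through the TEAD factors, whose recognition motif contains GGAATG, and often at enhancers shared with AP-1. Hippo pathway kinases hold them in the cytoplasm, whereas stiff substrates, spreading and actin tension favour their entry into the nucleus, so cells on plastic are a setting of high YAP/TAZ activity. In mammary epithelium they are known for driving proliferation and the matricellular genes CTGF and CYR61.

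The 2 siRNA libraries of HER2 cells held 67857398 and 59133388 counts, against 24425556 in their control library, the smallest total of the series. Of 25370 entries, 16117 genes passed the filter on low counts. Levels below are TMM-scaled CPM, a gene's share of its library's counts. Differences are siRNA minus control on the log2 CPM scale, computed after adding a prior count of 2. Marker levels, before TMM scaling, were uneven. The 10 epithelial markers summed to 1147 and 701 CPM in the siRNA libraries, against 1279 CPM in the HER2 control, and to 6705 and 6506 CPM in the empty-vector controls. KRT8 (120 and 103 CPM, against 56.5 CPM), EPCAM (24.1 and 20.2 CPM, against 18.3 CPM) and KRT19 lay above the control with both siRNAs. KRT7 (225 and 273 CPM, against 533 CPM), CDH1 (0.811 and 0.237 CPM, against 1.11 CPM) and KRT17 lay below it with both, and KRT5, KRT14 and KRT18 lay on both sides. GRHL2 had no count in these 3 libraries or in the empty-vector controls. The 7 endothelial markers summed to 38.0 and 22.5 CPM, against 12.98 CPM, of which PECAM1 held 35.5 and 17.8 CPM, against 7.41 CPM, whereas CDH5 had at most 0.0147 CPM. The 8 blood cell markers summed to 19.6 and 8.56 CPM, against 6.18 CPM, nearly all of it CD14, and PTPRC and CD3E had no count. The 9 fibroblast markers summed to 38.6 and 131 CPM, against 46.3 CPM. The 6 adipocyte markers summed to 9502 CPM with siRNA 1 and 346 CPM with siRNA 3, against 580 CPM. FABP4 held most of each sum (9240 and 264 CPM, against 440 CPM). The HER2 control on the hydrogel had an adipocyte sum of 6728 CPM. PLIN1 lay above the control with both siRNAs, whereas CIDEC and PPARG were higher with siRNA 1 and lower with siRNA 3. The part of these markers in the results was not tested. In bulk RNA, fewer cells of a type and less RNA per cell cannot be told apart.

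The targeted transcripts were lower with both siRNAs. YAP1 stood at 9.75 and 18.9 CPM with siRNA 1 and siRNA 3, against 115 CPM in the HER2 control, and at 14.3 and 14.3 CPM in empty-vector cells, against 83.9 and 85.1 CPM in their controls. WWTR1 stood at 28.97 and 48.2 CPM, against 170 CPM in the HER2 control, and at 14.0 and 21.6 CPM in empty-vector cells, against 77.4 and 76.9 CPM. YAP1 passed the paired edgeR fit described next at -3.06 ± 0.28 (log2 fold change ± SE, adjusted p = 0.0319) and WWTR1 at -2.18 ± 0.12 (adjusted p = 0.022). In empty-vector cells the siRNA libraries did not overlap the controls, and siRNA 1 left the lower level of both transcripts in HER2 cells. ERBB2, the gene of HER2, was at 442 and 361 CPM in the siRNA libraries, against 614 CPM in the HER2 control, a difference that did not pass any edgeR test here (adjusted p = 0.152 in the paired fit). In empty-vector cells it went the other way, at a mean of 84.5 CPM (SD 15.6) with siRNA, against 59.1 CPM (SD 2.01). In HER2 cells the ERBB2 counts can include transcripts of the introduced HER2-CA, which empty-vector cells lack. Counts per gene do not separate these from the cells' own ERBB2, so the 2 lines may not compare the same transcripts. With DESeq2 the HER2 response minus the empty-vector response was -1.16 on the log2 scale. It passed there in the paired fit and not with group means.

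With group means in edgeR's quasi-likelihood test, 0 of 16117 genes passed an adjusted p of 0.05 (0% in each direction; smallest adjusted p 0.373). In that fit 1751 genes had an unadjusted p under 0.05, and DESeq2 called 536, of which 360 were higher and 176 lower. The spread in that fit includes the difference between the reagents, because the siRNA 1 and siRNA 3 libraries are taken as replicates. A paired fit took the reagent into account, with 1 coefficient for the siRNA 3 to siRNA 1 contrast that HER2 and empty-vector cells have in common. It called 683 genes (4.24% of those tested), 329 lower (2.04%) and 354 higher (2.20%). The paired calls rest on few libraries: with empty-vector control A or B left out, 0 genes passed (2224 and 2222 at an unadjusted p under 0.05). The single HER2 control has no replicate of its own, and the labels do not say whether any libraries came from separate cultures. The p-values therefore measure only the spread between these samples. In the paired fit that spread comes from empty-vector controls A and B, and from how far the siRNA 3 to siRNA 1 contrast differs between the lines. No spread among HER2 controls enters it. Controls A and B lay close together, with a chi-square per gene of 11.5, against 614 between the HER2 siRNA libraries. Adjusted p-values below come from the paired fit, and the words higher and lower describe the libraries.

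A gene counts as seen with both siRNAs when each differed from the HER2 control by at least 2-fold in the same direction. There were 681 such lower genes (4.23% of the genes tested) and 1150 such higher genes (7.14%). These shares belong beside the list counts by this rule below. Beside the list counts of the paired fit belong 2.04% lower and 2.20% higher. siRNA 1 alone took 1292 genes past 2-fold lower and 2272 higher, and siRNA 3 took 2412 lower and 2735 higher. The lower genes were 52.7% of the siRNA 1 list and 28.2% of the siRNA 3 list, and the higher genes were 50.6% and 42.0%. Another 327 genes went past 2-fold in opposite directions with the 2 reagents. Both differences share the one control library, so their likeness is in part the noise of that control. Many of these genes were low in abundance: 165 of the lower and 284 of the higher genes had a mean log2 CPM of at least 2 over the 3 libraries. On the lower side HNRNPUL2 (-1.001 with siRNA 1 and -1.019 with siRNA 3) was just inside the threshold and RPRD2 (-0.9994 and -1.098) just outside it. On the higher side ERGIC3 (1.001 and 1.225) was just inside and HLA-H (1.181 and 0.9991) just outside.

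**Figure D1:**
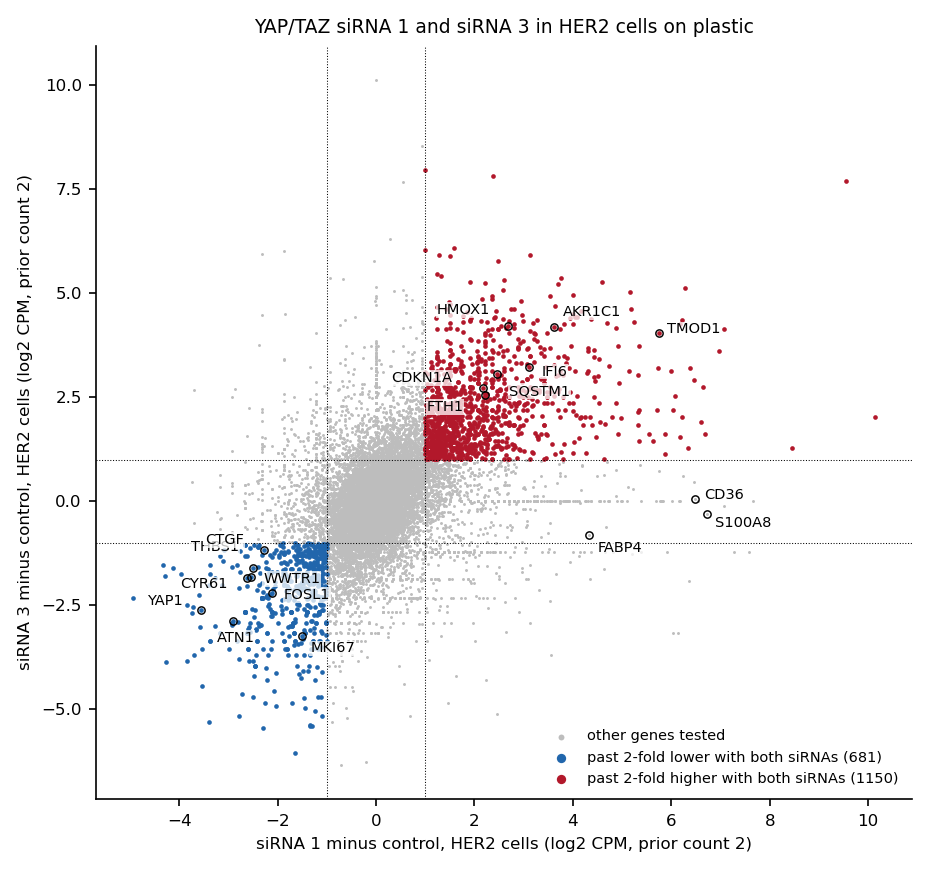
Each point is 1 of the 16117 genes tested, placed by its difference from the HER2 control with siRNA 1 (x axis) and siRNA 3 (y axis), both in log2 CPM; dotted lines mark 2-fold. The 681 blue and 1150 red genes are past 2-fold with both reagents, whereas CD36, FABP4 and S100A8 lie far right with siRNA 1 and near or below 0 with siRNA 3.

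Of the classic YAP/TAZ targets, a list of 22 genes that all passed the filter, 5 were lower and 1 higher in the paired fit, and 4 were lower and 1 higher past 2-fold with both siRNAs. The list's median difference was -0.86 with siRNA 1 and -0.51 with siRNA 3, beside 0.02 and 0.00 over all genes tested. CYR61, a secreted matricellular protein, was at 12.7 and 21.6 CPM in the siRNA libraries, against 77.7 CPM in the control (log2 fold change -2.23 ± 0.13 SE, adjusted p = 0.022). CTGF, its relative, was at 4.46 and 9.64 CPM, against 21.9 CPM (-1.74 ± 0.17, adjusted p = 0.0333). Both were lowest with siRNA 1, the reagent that left less YAP1 and WWTR1. AMOTL2 and ASAP1, given below, had the same order and CRIM1 the reverse. With 1 library per reagent, a relation between these orders was not tested. AMOTL2, a junctional scaffold that restrains YAP, was at 10.4 and 13.3 CPM, against 37.4 CPM (-1.66 ± 0.18, adjusted p = 0.0348). CRIM1, a transmembrane regulator of BMP ligands, was at 108 and 43.9 CPM, against 256 CPM (-1.89 ± 0.17, adjusted p = 0.0319). ASAP1, an ARF GTPase-activating protein, was at 51.9 and 57.6 CPM, against 111 CPM, just short of 2-fold with siRNA 3. All 5 were also lower in empty-vector cells, with siRNA libraries that did not overlap the controls there, as were 30.8% of all genes tested. The empty-vector libraries also enter the paired fit that picked these 5. Of the genes lower past 2-fold with both siRNAs that passed this fit, 112 of 134 (83.6%) were lower there without overlap.

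The promoters of 2 of these genes, and of THBS1, which is described with the matrix genes, are shown because the TEAD motif lies near their start. They are RefSeq sequences on GRCh38.p14, 250 bases before to 50 after the start, read 5′ to 3′ on the gene's strand, with matches of GGAATG or its reverse complement CATTCC in capitals. The authors' files use hg19, so these coordinates are not on their build.
CTGF (CCN2), chr6:131951323-131951622, minus strand: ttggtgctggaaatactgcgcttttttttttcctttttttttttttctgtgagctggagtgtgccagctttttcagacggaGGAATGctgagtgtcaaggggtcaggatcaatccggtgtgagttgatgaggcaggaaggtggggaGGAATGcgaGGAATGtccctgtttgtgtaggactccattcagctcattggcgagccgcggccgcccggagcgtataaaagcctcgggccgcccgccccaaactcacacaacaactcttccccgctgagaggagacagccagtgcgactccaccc
AMOTL2, chr3:134374398-134374697, minus strand: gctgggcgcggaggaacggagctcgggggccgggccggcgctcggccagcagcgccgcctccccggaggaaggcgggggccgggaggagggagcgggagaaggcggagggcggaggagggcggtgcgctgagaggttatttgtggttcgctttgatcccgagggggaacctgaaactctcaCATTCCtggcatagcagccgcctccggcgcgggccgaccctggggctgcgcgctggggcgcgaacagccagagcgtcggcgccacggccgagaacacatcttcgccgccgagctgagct
THBS1, chr15:39580829-39581128, plus strand: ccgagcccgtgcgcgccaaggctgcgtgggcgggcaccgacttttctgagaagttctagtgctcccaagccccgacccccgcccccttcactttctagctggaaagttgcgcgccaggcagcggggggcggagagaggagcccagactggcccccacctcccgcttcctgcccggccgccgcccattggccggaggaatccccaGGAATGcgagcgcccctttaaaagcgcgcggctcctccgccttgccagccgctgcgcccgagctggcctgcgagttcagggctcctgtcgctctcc
CTGF holds 3 matches, the first beginning 169 and the last 95 bases before the start, whereas AMOTL2 holds 1 at 69 bases and THBS1 holds 1 at 46 bases. Of the 22 listed targets, 16 had a promoter in the table and 9 of those held a match. These were AMOTL2, CTGF, LATS2, ANKRD1, AXL, FOXF2, PTPN14, NUAK2 and TGFB2. Only AMOTL2 and CTGF of them are among the 5 targets lower in the paired fit. CYR61, CRIM1 and ASAP1 had no promoter in the table. A link between a match and the response was not tested. Over all genes in the table, 16.73% held one in such a window. A match is a description of the letters and does not show binding.

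The other targets did not move as one. IGFBP3, which binds insulin-like growth factors, was at 52.6 and 3.51 CPM in the siRNA libraries, against 1.27 CPM in the control (3.48 ± 0.57, adjusted p = 0.046). It was the one target past 2-fold higher with both reagents. In empty-vector cells its siRNA libraries (48.5 and 8.89 CPM) lay on both sides of the controls (24.7 and 25.1 CPM). AXL, a receptor tyrosine kinase, was at 29.1 CPM with siRNA 1 and 111 CPM with siRNA 3, against 85.8 CPM. NT5E, the ecto-nucleotidase CD73, was at 353 and 2265 CPM, against 960 CPM, so that both genes were lower with siRNA 1 and higher with siRNA 3. ANKRD1, a widely used YAP/TAZ reporter gene, was near its limit of detection in HER2 cells, with 5 and 56 counts in the siRNA libraries and 8 in the control. In empty-vector cells it was at 1.43 and 2.67 CPM, against 25.7 and 28.1 CPM.

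Among 27 tested genes of the Hippo pathway and its TEAD cofactors, 4 were lower and 2 higher in the paired fit, the lower ones including YAP1, WWTR1 and AMOTL2 themselves. The fourth was VGLL3, a TEAD cofactor, at 159 and 74.1 CPM, against 244 CPM (-1.17 ± 0.12, adjusted p = 0.0333). VGLL4, a TEAD cofactor that competes with YAP, was at 114 and 204 CPM in the siRNA libraries, against 81.3 CPM in the control (0.91 ± 0.14, adjusted p = 0.0429). TEAD2 was at 19.1 and 41.2 CPM, against 13.1 CPM (1.10 ± 0.18, adjusted p = 0.0452). VGLL4 and TEAD2 were higher in empty-vector cells as well, without overlap, as were 32.0% of all genes tested. The kinase gene LATS1 was at 37.5 and 38.5 CPM, against 44.8 CPM, and did not pass. AP-1 factors, 11 genes, split: FOSL1 was at 10.05 and 9.50 CPM, against 43.9 CPM (-2.16 ± 0.21, adjusted p = 0.0333), and FOS was at 20.5 and 27.4 CPM, against 8.32 CPM (1.51 ± 0.17, adjusted p = 0.0352). FOSL1 was also lower and FOS also higher in empty-vector cells, without overlap. Of the genes past 2-fold with both siRNAs that passed the paired fit, 83.6% of the lower and 87.1% of the higher ones did the same.

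**Figure D2:**
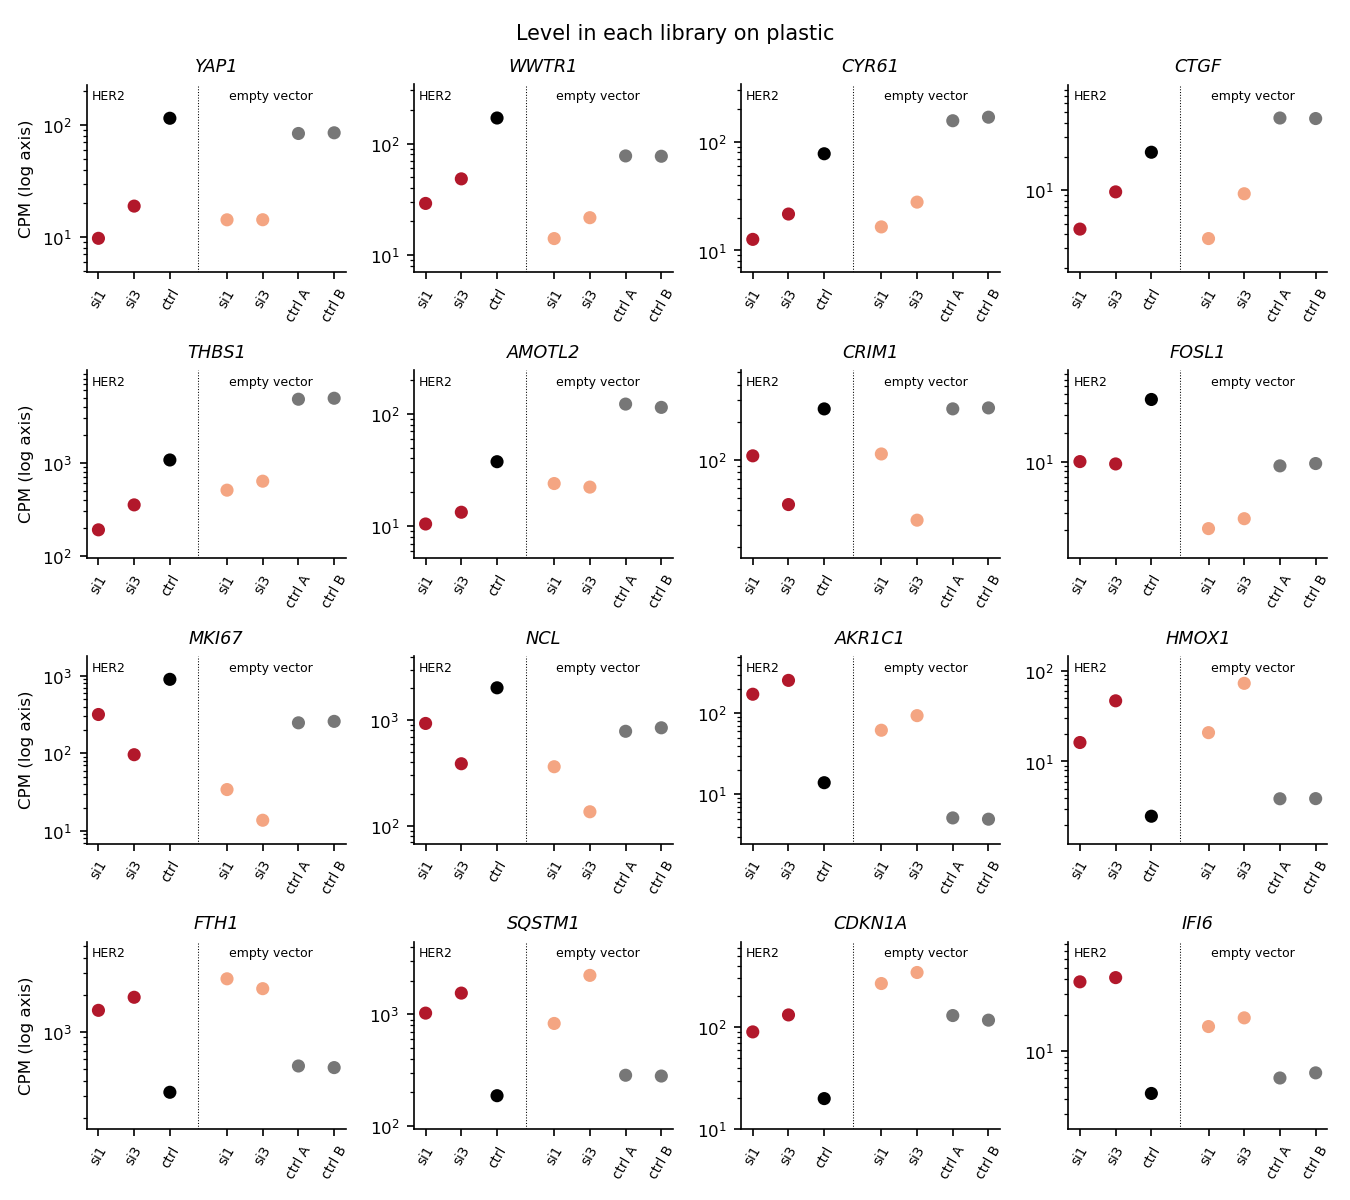
Level in CPM (log axis) of 16 genes in each library on plastic, with siRNA 1 (si1) and siRNA 3 (si3) left of the control in HER2 cells and left of controls A and B in empty-vector cells; each point is 1 library. In HER2 cells both siRNA points of each gene lie on the same side of the control, and in empty-vector cells they lie on that side of both controls as well. The 16 genes were picked from those named in the text, so this agreement follows in part from the choice. Of all genes past 2-fold with both siRNAs in HER2 cells, 50.4% of the lower and 62.8% of the higher ones showed it.

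Matrix and adhesion genes lay on both sides. Of 31 matrix genes, 3 were lower and 2 higher in the paired fit. THBS1, the matricellular protein thrombospondin-1, was at 191 and 353 CPM in the siRNA libraries, against 1074 CPM in the HER2 control (-2.04 ± 0.18, adjusted p = 0.0319). In empty-vector cells it was at 509 and 635 CPM, against 4831 and 4951 CPM. FN1, the matrix protein fibronectin, was at 917 and 2938 CPM, against 457 CPM (1.84 ± 0.13, adjusted p = 0.022), and it was higher in empty-vector cells too. COL6A1 was at 95.8 and 85.0 CPM, against 25.8 CPM, past 2-fold with both reagents, and did not pass the paired fit (adjusted p = 0.0889). Among 24 genes of integrins and focal adhesions, 4 were higher and 2 lower in the paired fit. ITGA5, the fibronectin receptor subunit, was at 468 and 1117 CPM, against 277 CPM (1.39 ± 0.12, adjusted p = 0.0319), and ITGB6 at 40.6 and 58.7 CPM, against 20.9 CPM. TLN1, the integrin activator talin, was at 153 and 225 CPM, against 359 CPM, and CAV1, the caveolar coat protein, at 615 and 394 CPM, against 903 CPM. Of 25 SRF and actin cytoskeleton genes, TLN1 was the one that passed, and no member was past 2-fold with both siRNAs.

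Mitosis genes were lower in HER2 cells with both siRNAs, by an amount that differed widely between them. All 38 mitosis genes lay below the control with both reagents, beside 29.9% of all genes tested. Their median difference was -0.65 with siRNA 1 and -2.18 with siRNA 3. In the paired fit 5 of the 38 passed, all lower, and 4 were past 2-fold with both. MKI67, the proliferation marker Ki-67, was at 318 and 96.2 CPM, against 903 CPM (-2.36 ± 0.16, adjusted p = 0.022). CENPF, a kinetochore protein, was at 1077 and 505 CPM, against 2428 CPM (-1.70 ± 0.29, adjusted p = 0.0479). INCENP, a scaffold of Aurora B, was at 57.4 and 23.7 CPM, against 118 CPM (-1.66 ± 0.28, adjusted p = 0.0483). All were lowest with siRNA 3, as was CRIM1, the reverse of the order for YAP1, WWTR1, CYR61 and CTGF.

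In empty-vector cells the same lists were lower by more, with medians of -2.96 and -3.32 for mitosis, where all 38 genes passed the paired fit (13.6% of all genes were lower and 12.1% higher in that comparison). DNA replication genes, 36 in number, had medians of -0.28 and -1.57 in HER2 cells, where 2 passed, and -2.57 and -2.26 in empty-vector cells, where all 36 passed. The 22 replication-dependent histone genes, whose transcripts lack poly(A) tails and are kept by ribosomal depletion, had medians of 0.29 and -1.36 in HER2 cells, and -3.31 and -3.56 in empty-vector cells. MKI67 in empty-vector cells stood at 34.2 and 13.7 CPM, against 248 and 259 CPM. A direct test of the difference between lines (HER2 response minus empty-vector response) called 0 genes in either edgeR fit (0% in each direction), with 736 genes at an unadjusted p under 0.05 with group means and 2415 in the paired fit. DESeq2 called 34 and 630 genes in the same tests. The gap between the lines in these lists is therefore a description. Among the genes of largest difference reported by name below, HNRNPH3 and IFI6 passed in both DESeq2 tests of the lines, with differences of -1.53 and 1.65 by group means. ANP32B, ATN1, CXCL8, EIF5B, MDC1, NFIC, SELM, SNCG and SRCAP passed in the paired DESeq2 test alone. In edgeR none of these genes passed.

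The cell cycle inhibitor CDKN1A and a few other p53 targets were higher. CDKN1A, the CDK inhibitor p21, was at 89.8 and 132 CPM, against 19.96 CPM in the HER2 control (2.45 ± 0.16, adjusted p = 0.022), and at 267 and 343 CPM in empty-vector cells, against 130 and 117 CPM. CDK6, a G1 kinase, was at 128 and 141 CPM, against 266 CPM (-0.99 ± 0.12, adjusted p = 0.0377). Of 26 G1 cyclins and inhibitors tested, CDKN1A and CDK6 were those that passed. Of 26 p53 targets, 3 passed, all higher: CDKN1A, PHLDA3 at 15.8 and 12.4 CPM, against 4.81 CPM, and ZMAT3 at 86.3 and 191 CPM, against 76.3 CPM. The list's medians were 0.65 and 0.34. LMNB1, the nuclear lamin B1, was at 190 and 82.6 CPM, against 479 CPM (-1.92 ± 0.26, adjusted p = 0.0405), and at 21.6 and 17.5 CPM in empty-vector cells, against 267 and 267 CPM. Ribosome biogenesis genes were lower in 6 of 26, with none higher. NCL, the nucleolar protein nucleolin, was at 932 and 387 CPM, against 2026 CPM (-1.75 ± 0.12, adjusted p = 0.022), and TAF1D, a subunit of the RNA polymerase I factor SL1, at 45.5 and 27.4 CPM, against 118 CPM.

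NRF2 targets, which serve antioxidant defence and detoxification, mostly lay above the control. Of 20 tested, 19 lay above the control with both siRNAs (35.5% of all genes did), 9 passed the paired fit, all higher, and 9 were past 2-fold with both. Of those past 2-fold, 8 were also higher without overlap in empty-vector cells, beside 62.8% of all 1150 higher genes. The list's medians were 0.95 with siRNA 1 and 1.71 with siRNA 3. AKR1C1, an aldo-keto reductase, was at 172 and 255 CPM, against 13.9 CPM in the HER2 control (3.91 ± 0.16, adjusted p = 0.022). In empty-vector cells it was at 61.8 and 93.7 CPM, against 5.11 and 4.93 CPM. AKR1C1 and AKR1C2 are near-identical in sequence and AKR1C3 is a less close relative, so reads may be shared between them, and all 3 were higher. AKR1B10 was at 34.2 and 15.8 CPM, against 1.44 CPM, and HMOX1, heme oxygenase 1, at 16.2 and 46.5 CPM, against 2.49 CPM (3.46 ± 0.22, adjusted p = 0.022). FTH1, the ferritin heavy chain, was at 1494 and 1907 CPM, against 323 CPM (2.40 ± 0.23, adjusted p = 0.0319), with the reservation that FTH1 has many processed pseudogenes. NQO1, the quinone reductase, was at 867 and 1381 CPM, against 487 CPM, and passed without reaching 2-fold with siRNA 1. GCLM and TXNRD1, other well-known members, were at 213 and 188 CPM, against 172 CPM, and at 575 and 967 CPM, against 528 CPM, and did not pass.

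Lysosome and autophagy genes were higher in 5 of 29 in the paired fit, with none lower, and their medians were 0.45 and 1.21. SQSTM1, the autophagy receptor p62 and itself linked to NRF2 activity, was at 1027 and 1551 CPM, against 187 CPM (2.77 ± 0.29, adjusted p = 0.034). ATP6AP1, an accessory subunit of the lysosomal proton pump, was at 45.4 and 39.4 CPM, against 17.6 CPM (1.26 ± 0.15, adjusted p = 0.0369). Respiratory chain genes were higher in 5 of 23, among them NDUFA2 at 26.02 and 27.2 CPM, against 11.8 CPM, the one member past 2-fold with both. In that list the control library held the extreme of all 9 libraries for 13 of the 23 genes, beside 31.1% of all genes tested.

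Interferon-response genes were higher in 6 of 38 in the paired fit, beside 2.20% of all genes tested. Past 2-fold higher with both siRNAs were 12, beside 7.14% of all genes tested, and none was lower by either count. Of the 12, 9 were also higher without overlap in empty-vector cells, beside 62.8% of all 1150 higher genes. IFI6, an interferon-induced mitochondrial protein, was at 38.2 and 41.5 CPM, against 4.42 CPM (3.17 ± 0.20, adjusted p = 0.022). IFI44L was at 159 and 177 CPM, against 33.3 CPM (2.35 ± 0.36, adjusted p = 0.0429). IFITM1 was at 1.60 and 4.92 CPM, against 0.0875 CPM, or 2 counts in the control. Several classic members, among them ISG15 (1.62 and 3.63 CPM, against 0.744 CPM), stayed below 5 CPM in all 3 libraries. Of 23 NF-kB and cytokine genes, CXCL8 and IL1A passed. CXCL8, the chemokine IL-8, was at 170 and 112 CPM, against 19.8 CPM (2.83 ± 0.39, adjusted p = 0.0406).

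**Figure D3:**
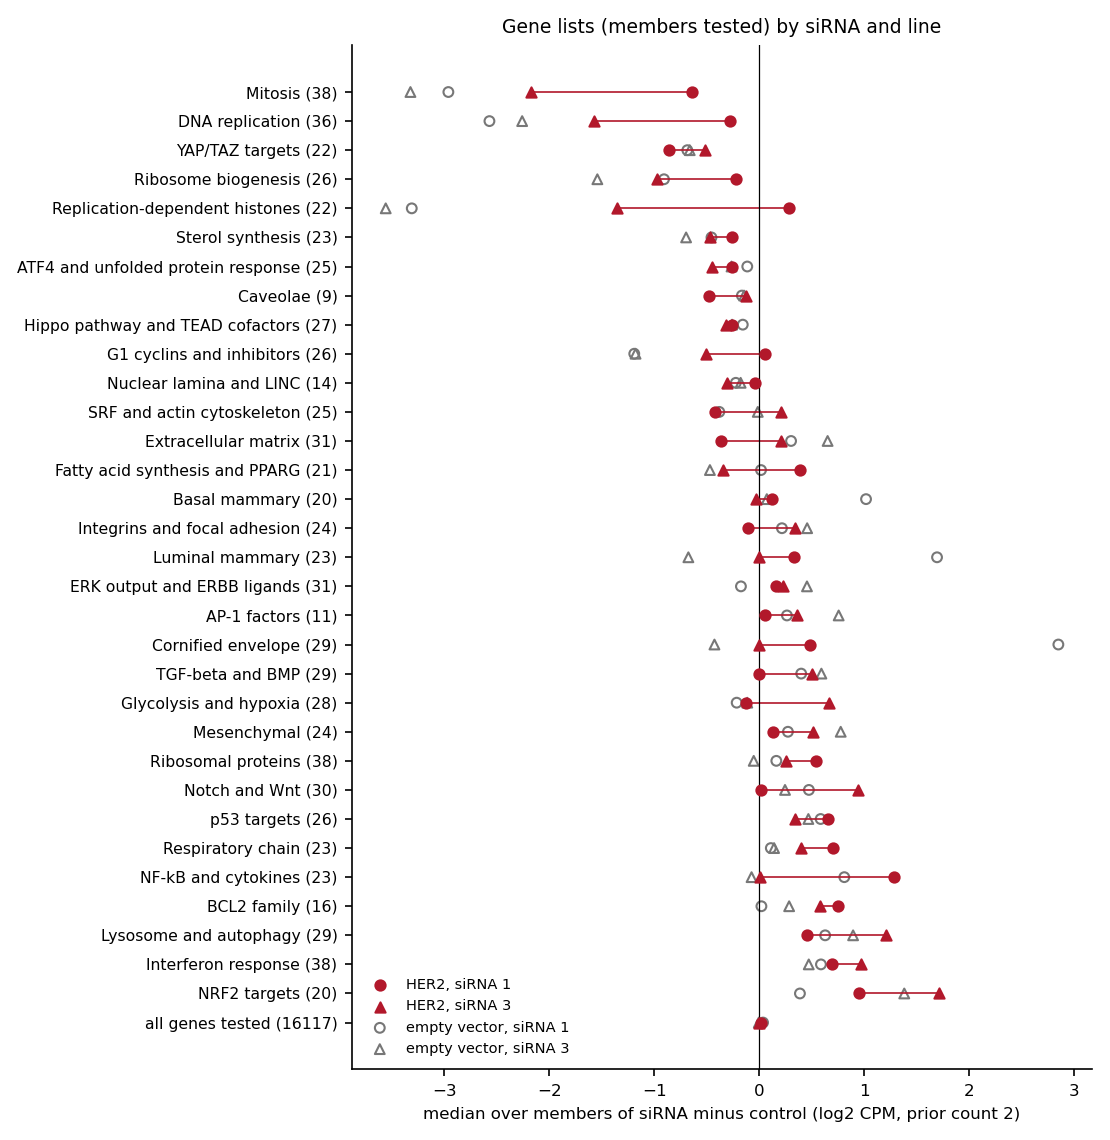
Median difference from control (log2 CPM) over the tested members of each list, ordered by the mean of the 2 HER2 medians, for siRNA 1 (circles) and siRNA 3 (triangles) in HER2 cells (filled) and empty-vector cells (open). Mitosis genes have HER2 medians of -0.65 and -2.18, against -2.96 and -3.32 in empty-vector cells, and NRF2 targets have HER2 medians of 0.95 and 1.71.

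Across single genes, the 15 lower genes with the largest differences seen with both siRNAs, among those whose log2 CPM averaged 2 or more, had smaller-of-both differences of 1.84 to 2.88 on the log2 scale. Those reported by name are ATN1, YAP1, MDC1, CCBE1, ANP32B, TNS4, EIF5B, HMGN5, HNRNPH3, FOSL1, NFIC, ANKRD36, SRCAP and CYR61. Beside YAP1 and CYR61, which is on the target list, their functions vary. HNRNPH3 binds RNA, MDC1 is a DNA damage adaptor, and SRCAP and HMGN5 act on chromatin. For each of these nuclear proteins the single HER2 control was the highest of all 9 libraries, as described below. CCBE1, a secreted matrix protein needed for VEGF-C processing, was at 3.87 and 8.86 CPM, against 51.4 CPM in the HER2 control, and at 9.06 and 5.43 CPM in empty-vector cells, against 106 and 102 CPM. ATN1, a transcriptional corepressor, was at 3.33 and 3.39 CPM, against 25.1 CPM. EIF5B, a translation initiation factor, was at 46.6 and 34.4 CPM, against 206 CPM. In empty-vector cells ATN1 (4.02 and 1.66 CPM, against 4.62 and 3.75 CPM) and EIF5B (46.6 and 23.4 CPM, against 45.0 and 44.7 CPM) overlapped between siRNA and control, as did TNS4 and NFIC. ANKRD36 has close copies in the genome and its level is uncertain.

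The 15 higher genes, chosen in the same way, were TMOD1, AKR1C1, AKR1B10, GPRC5C, IFI6, SNCG, SELM, TMEM45A, HMOX1, RNASE4, RHOB, C1S, CSGALNACT1, CXCL8 and FPR1, with smaller-of-both differences of 2.46 to 4.03. TMOD1, the actin pointed-end cap tropomodulin, was at 44.0 and 13.4 CPM, against 0.788 CPM in the HER2 control. RHOB, a small GTPase of endosomes, was at 93.9 and 192 CPM, against 15.6 CPM. C1S, a complement protease, was at 47.4 and 36.6 CPM, against 6.26 CPM, and SNCG, gamma-synuclein, at 110 and 36.9 CPM, against 4.99 CPM. All 4 were also higher in empty-vector cells without overlap, as were 14 of the 15 (FPR1 overlapped). Of the 15 lower genes, which include the targeted YAP1, 11 were lower there without overlap. The shares among all genes past 2-fold with both siRNAs were 62.8% for higher and 50.4% for lower genes. Over all genes tested they were 32.0% and 30.8%. RNASE4 shares its locus with ANG, so its level is uncertain. The paired fit passed 14 of the 15 lower genes (not TNS4) and 13 of the 15 higher ones (not TMEM45A or FPR1), on the same differences that chose them.

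The empty-vector libraries took no part in choosing the genes, although they received the same reagents. Of the 681 lower genes, 343 (50.4%) were lower in empty-vector cells with both siRNA libraries below both controls, beside 30.8% of all genes tested, and 60 were higher in that sense. Of the 1150 higher genes, 722 (62.8%) were higher there without overlap, beside 32.0% of all genes, and 51 were lower. Median empty-vector log2 fold changes in the paired fit were -0.71 for the lower genes and 1.11 for the higher genes, beside 0.03 over all genes, and the HER2 medians of the same genes were -1.85 and 1.97. Past 2-fold with both siRNAs in empty-vector cells were 159 of the lower genes (23.3%, beside 6.70% of all genes) and 415 of the higher genes (36.1%, beside 8.08%). The choice of siRNA reagent was common to both lines, so effects of a reagent that do not come from YAP and TAZ would also be shared, and this was not tested.

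**Figure D4:**
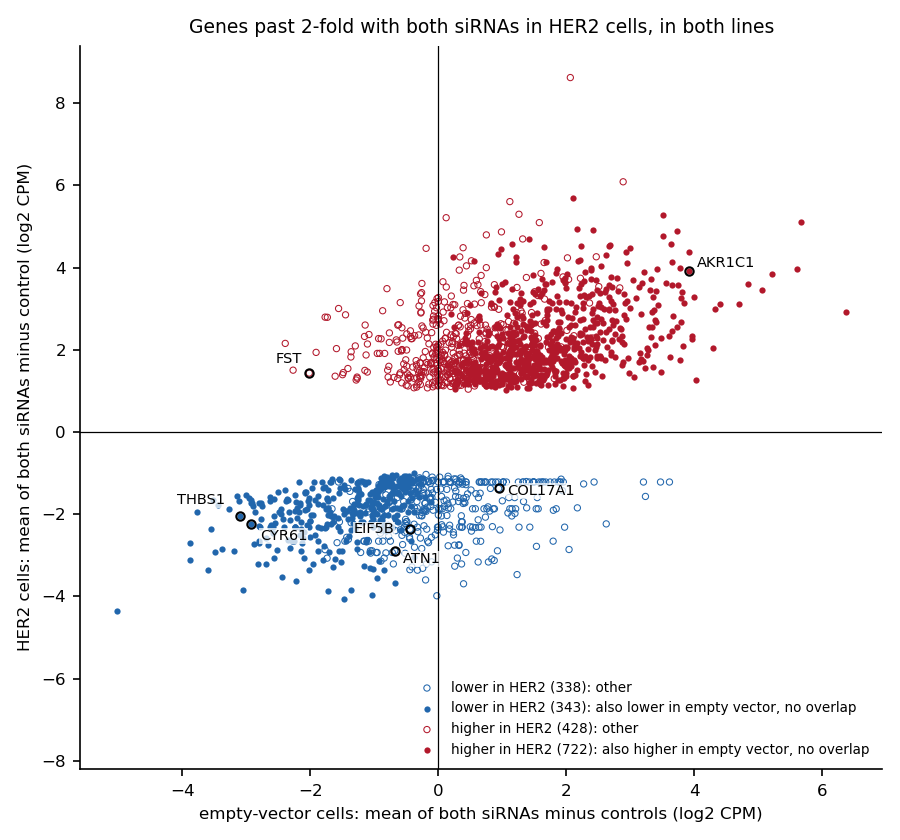
The 681 lower (blue) and 1150 higher (red) genes of HER2 cells, placed by the mean of both siRNA differences in empty-vector cells (x axis) and in HER2 cells (y axis), in log2 CPM. Filled points are the 343 and 722 genes whose empty-vector siRNA libraries lay on the same side without overlap; COL17A1 is among the genes on opposite sides.

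The HER2 control library stood apart from the rest for many of these genes. For 358 of the 681 lower genes (52.6%) it was the highest of all 9 libraries, beside 15.4% of all genes tested, and for 602 of the 1150 higher genes (52.3%) it was the lowest, beside 15.8%. Among the 4 HER2 libraries, hydrogel included, it was the highest for 89.9% of the lower genes and the lowest for 73.0% of the higher genes, beside 24.1% and 24.2% of all genes. Part of that follows from choosing genes on differences from this library. It was the highest of 9 for 12 of the 15 named lower genes: HNRNPH3 was at 20.96 and 19.6 CPM in the siRNA libraries and 12.4 CPM in the HER2 hydrogel control, against 91.4 CPM in the HER2 control, and at 17.3 and 16.9 CPM in the empty-vector controls. CYR61, CCBE1 and TNS4 were not of that kind, because their empty-vector controls lay above the HER2 control. It was the highest or the lowest of 9 for 31.1% of all genes tested. By that count it was extreme for 25 of 38 mitosis genes, 15 of 26 ribosome biogenesis genes, 16 of 29 lysosome and autophagy genes, 8 of 20 NRF2 targets and 10 of 38 interferon genes. The nuclear RNA MALAT1 took 0.0820% and 0.131% of counts in the siRNA libraries and 0.0573% in the HER2 hydrogel control, against 0.232% in the HER2 control. The empty-vector library with siRNA 1 held more (0.242%), and the other empty-vector libraries held 0.0832% to 0.159%. Median transcript length was 2470 bases for the lower and 2731 bases for the higher genes, beside 3197 bases for all genes with a length. Over 15536 genes, the HER2 control minus the mean of the empty-vector controls had a Spearman correlation with length of 0.172. Against the HER2 control, the correlation was -0.131 for siRNA 1, 0.00932 for siRNA 3 and -0.241 for the HER2 hydrogel library. Of the lower genes for which the HER2 control was the highest of 9, 230 of 358 (64.2%) were lower in empty-vector cells without overlap. That share was 50.4% for all 681 lower genes and 30.8% for all genes tested. The part of this library in the results was not tested.

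**Figure D5:**
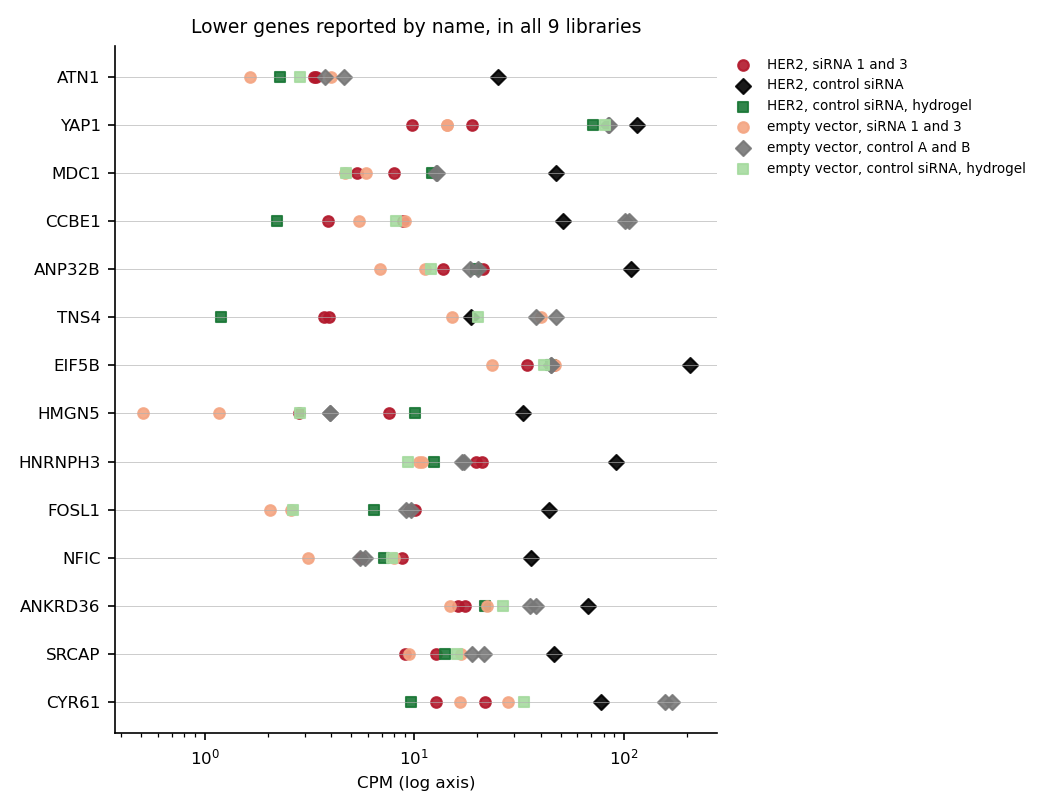
Level in CPM (log axis) of the lower genes reported by name in all 9 libraries, 1 symbol per library, ordered from ATN1 (top) by the smaller of both siRNA differences. The HER2 control on plastic (black diamond) is the highest library for each gene shown but CYR61, CCBE1 and TNS4, for which the empty-vector controls (grey diamonds) lie above it.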

How the data were processed

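Total RNA was depleted of ribosomal RNA and sequenced, per the labels' protocols. The authors deposited raw read counts per gene symbol for 9 libraries; STAR 2.5.3a, featureCounts and edgeR, with build hg19, are named in the submitters' processing notes, and strand handling is not given in the sources used here, so overlapping and antisense genes cannot be separated. The 1 entry without a symbol held 0 counts and was left out. In edgeR 4.0.16 (R 4.3.3), counts were filtered with filterByExpr (minimum count 10, 6 groups) and scaled by TMM. The main test was the quasi-likelihood test on group means over all 9 libraries (3 residual degrees of freedom, biological coefficient of variation 0.408), adjusted by Benjamini-Hochberg. The paired fit adds the siRNA number (2 residual degrees of freedom, 0.209). The number is read as a shared reagent, because the labels give siYT1 and siYT3 in both lines; the siRNA 3 minus siRNA 1 differences of the lines correlated across genes at r = 0.415 (2 pairs). SE is the log2 fold change divided by the square root of F. DESeq2 1.42.0 was an alternative. Empty-vector controls A and B differed beyond counting noise (chi-square per gene 11.5, against 614 between the HER2 siRNA libraries), so they were kept as 2. Gene lists, the comparison and the members were chosen with earlier results of these data known. Named genes were YAP1, WWTR1, ERBB2, the 15 largest in each direction with mean log2 CPM of at least 2, and list members with the largest smaller-of-both difference; other named members were chosen after their values were seen, and 1 of the 15 lower genes is not reported here. In 32 lists, 1 older symbol was matched through RefSeq synonyms. Counts of 3 or fewer were treated as at the floor. Alternatives were other scaling, filters, prior counts, thresholds, thinning to the smallest library, other tools and leaving out libraries.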

Additional observations from a re-analysis of the deposited data

Results flagged for a closer look

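Among 127 list members and named genes that were past 2-fold with both siRNAs or passed the paired fit, with adequate abundance, 3 lay on opposite sides of their controls in the 2 lines, each with siRNA libraries that did not overlap the controls. COL17A1, a hemidesmosomal collagen of basal epithelium, was at 6.66 and 7.43 CPM in HER2 siRNA libraries, against 18.3 CPM in the HER2 control (log2 fold change -1.36), and at 2056 and 1244 CPM in empty-vector siRNA libraries, against 839 and 827 CPM in their controls (0.96). IL1A, an epithelial alarmin, was at 155 and 93.4 CPM, against 63.8 CPM (0.92), in HER2 cells, and at 219 and 119 CPM, against 230 and 245 CPM (-0.55), in empty-vector cells. KRT8, a simple-epithelial keratin, was at 123 and 103 CPM, against 60.4 CPM (0.90), in HER2 cells, and at 110 and 113 CPM, against 135 and 134 CPM (-0.27), in empty-vector cells. edgeR's test of the difference between lines gave an adjusted p of 0.232 for each, so none of the 3 differences passed.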

How the results depend on the processing

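The group-means count of 0 stayed at 0 with other size factors, no low-count filter, HER2 libraries only, libraries on plastic only, thinned counts, and with any 1 of the HER2 siRNA, empty-vector siRNA or empty-vector plastic control libraries left out (0 to 0). It was 536 with DESeq2 and 683 with the replicate block, the siRNA number. Under that block the count was 2407 with DESeq2 and ran from 0 to 8992 with 1 library left out (0 without either empty-vector control, 8156 and 8164 without empty-vector siRNA 1 or 3, 7459 and 8992 without HER2 siRNA 3 or 1, when 1 siRNA library of a line remains), and it lay between 641 and 767 under the remaining alternatives, which like the others under the block were chosen after seeing the data. The both-siRNA counts of 681 lower and 1150 higher were 1482 and 2102 at 1.5-fold, 133 and 325 at 4-fold, and with 1 siRNA alone 1292 and 2272 (siRNA 1) or 2412 and 2735 (siRNA 3), so that the ranges over the siRNA left out were 1292 to 2412 and 2272 to 2735. Other settings kept them within 1.5 times. The empty-vector counts of 343 and 722 were 159 and 415 by the 2-fold rule. Of 95 genes examined singly by group means, the 32 made up of YAP1, WWTR1, ERBB2 and the largest differences kept their direction under all 9 alternatives tried for each. Another 8 reversed, 7 of them under no alternative but a HER2 siRNA library left out. With 1 library left out in turn, the log2 fold change ran from -2.18 to 1.44 for ANKRD1, from -1.56 to 0.37 for AXL, from -1.44 to 1.23 for NT5E, from -0.34 to 1.46 for ITGB1, from -1.45 to 0.15 for KRT5 and from -0.49 to 0.20 for KRT18. It ran from -0.83 to 4.33 for FABP4 and from -0.33 to 6.77 for S100A8. Each of these reversals left 1 siRNA against the control, and the siRNAs lay on opposite sides of it. NT5E also reversed under the replicate block (-0.075, against 0.45 by group means). A HER2 control of 1 library with 24425556 counts limits every HER2 difference: genes with few counts there, such as IFITM1 with 2, have folds that depend on the prior count.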

Other observations

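Some of the largest differences belonged to 1 reagent. With siRNA 1, the lipid genes FABP4, a fatty acid carrier, and CD36, a fatty acid receptor, were at 9489 and 828 CPM in HER2 cells. With siRNA 3 they were at 266 and 9.52 CPM, and in the HER2 control at 470 and 9.19 CPM. ACSL1, an acyl-CoA synthetase, was at 1432 CPM with siRNA 1 and 321 CPM with siRNA 3, against 296 CPM in the control, and DGAT2, of triglyceride synthesis, at 182 and 44.1 CPM, against 27.2 CPM. The HER2 control on the hydrogel held 6539 CPM of FABP4 and 429 CPM of CD36. In empty-vector cells FABP4 was at 77.8 CPM with siRNA 1 and 0.593 CPM with siRNA 3, against 7.88 and 6.82 CPM in the controls. These genes were named after their values were seen.

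The alarmins S100A8 and S100A9 were at 90.9 and 129 CPM with siRNA 1 in HER2 cells and at 0.664 and 7.10 CPM with siRNA 3, against 0.832 and 2.58 CPM in the control. In empty-vector cells S100A8 was at 1239 CPM with siRNA 1 and 11.1 CPM with siRNA 3, against 19.6 and 19.7 CPM. Going the other way, ITGB1, the common integrin beta subunit, was at 2044 CPM with siRNA 1 and 7101 CPM with siRNA 3, against 2581 CPM. S100A8 passed the paired fit (adjusted p = 0.022), although its siRNA 3 library lay below the control. It is 1 of 7 among the 683 paired-fit genes whose siRNAs lay on opposite sides.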
